A study of Mus musculus with 18 samples.

Results

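The genes described here mark alveolar type 1 cells, and they were Ager, Hopx, Aqp5, Pdpn, Cav1, Rtkn2, Igfbp2, Spock2, Clic5 and Emp2. A probe set, which is a group of array probes read as a single value, was taken where its only gene symbol was that of a member. All 10 genes were measured, by 18 of the 34945 probe sets with a single symbol, and they were among 18193 genes tested. For each gene the probe set with the highest mean gave the values below, and the remaining probe sets served as a check.

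Lung samples of B6C3F1/N mice, hybrids bred for long toxicology studies, were profiled on Affymetrix mouse arrays, and the animals were 5 to 6 weeks old at the start. The study had 3 groups of 6 arrays each, namely lung of vehicle controls, spontaneous lung tumors, and lung tumors of mice treated with antimony trioxide, here called treated tumors. The title describes the tumors as alveolar bronchiolar carcinomas. Aerosol concentrations in the exposure study were 0, 3, 10 or 30 mg/m3, with 60 mice of each sex at each level, given 6 hours and 12 minutes daily on 5 days of the week for at most 105 weeks. Tumors were cut out of the surrounding lung before RNA was extracted, whereas a control sample is lung tissue with all of its cell types. The labels used here tie no array to an animal, a sex, an age at sampling or an exposure level, so the p-values measure only the spread between these samples, which may be technical.

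Alveolar type 1 cells are thin, flat epithelial cells that cover most of the gas exchange surface of the lung. They are renewed from alveolar type 2 cells, the cuboidal cells that make surfactant, by way of a transitional state with raised keratins. The members hold several unrelated roles: a pattern recognition receptor (Ager), a mucin-type surface glycoprotein (Pdpn), a water channel (Aqp5), membrane organisers (Cav1, Clic5, Emp2), a rhotekin family protein (Rtkn2), a homeodomain protein without DNA binding of its own (Hopx) and secreted proteins (Igfbp2, Spock2). Pdpn, Cav1 and Aqp5 are also made by other lung cells, namely lymphatic endothelium and mesothelium, capillary endothelium, and airway glands.

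Control 5 and spontaneous tumors 5 and 6 stood apart from the other arrays and were left out, which left 5 control, 4 spontaneous tumor and 6 treated tumor arrays. Their median correlation with the other arrays was 0.30 to 0.48, against 0.92 to 0.97 for the 15 arrays kept. A value over all 18 arrays follows in square brackets where it is given. On the kept arrays the 3-prime minus 5-prime difference of the Gapdh control probe sets, a measure of RNA and label quality, was 1.84 to 2.21 log2 in control lung, 1.11 to 1.40 in spontaneous and 1.09 to 1.97 in treated tumors. The spiked-in BioB control read 10.6 to 11.2, 10.2 to 10.5 and 10.2 to 10.6 log2. Values are the deposited log2 signals, and changes are differences of group means on that scale with their standard error (SE).

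Most of the alveolar type 1 genes were lower in both kinds of tumor than in control lung. With limma and Benjamini-Hochberg adjustment over all genes, 8 of 10 members fell in spontaneous tumors, where 12.9% of all genes fell. In treated tumors 7 of 10 fell, where 15% of all genes fell. The members' median difference was -1.92 [-1.65] log2 in spontaneous and -2.10 [-1.20] in treated tumors, beside 0.12 and 0.09 for all genes. Every tumor array read below every control array for 7 of 10 members in spontaneous tumors, against 11.4% of all genes, and for 7 of 10 in treated tumors, against 10.1%. Over all 18 arrays 2 of 10 members were called in spontaneous tumors, where 3.13% of genes fell, and 3 of 10 in treated tumors, where 4.46% fell. The 2 were Spock2 and Igfbp2, and Rtkn2 joined them in treated tumors. In tissue samples, fewer cells of a type and less RNA per cell cannot be told apart.

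**Figure D1:**
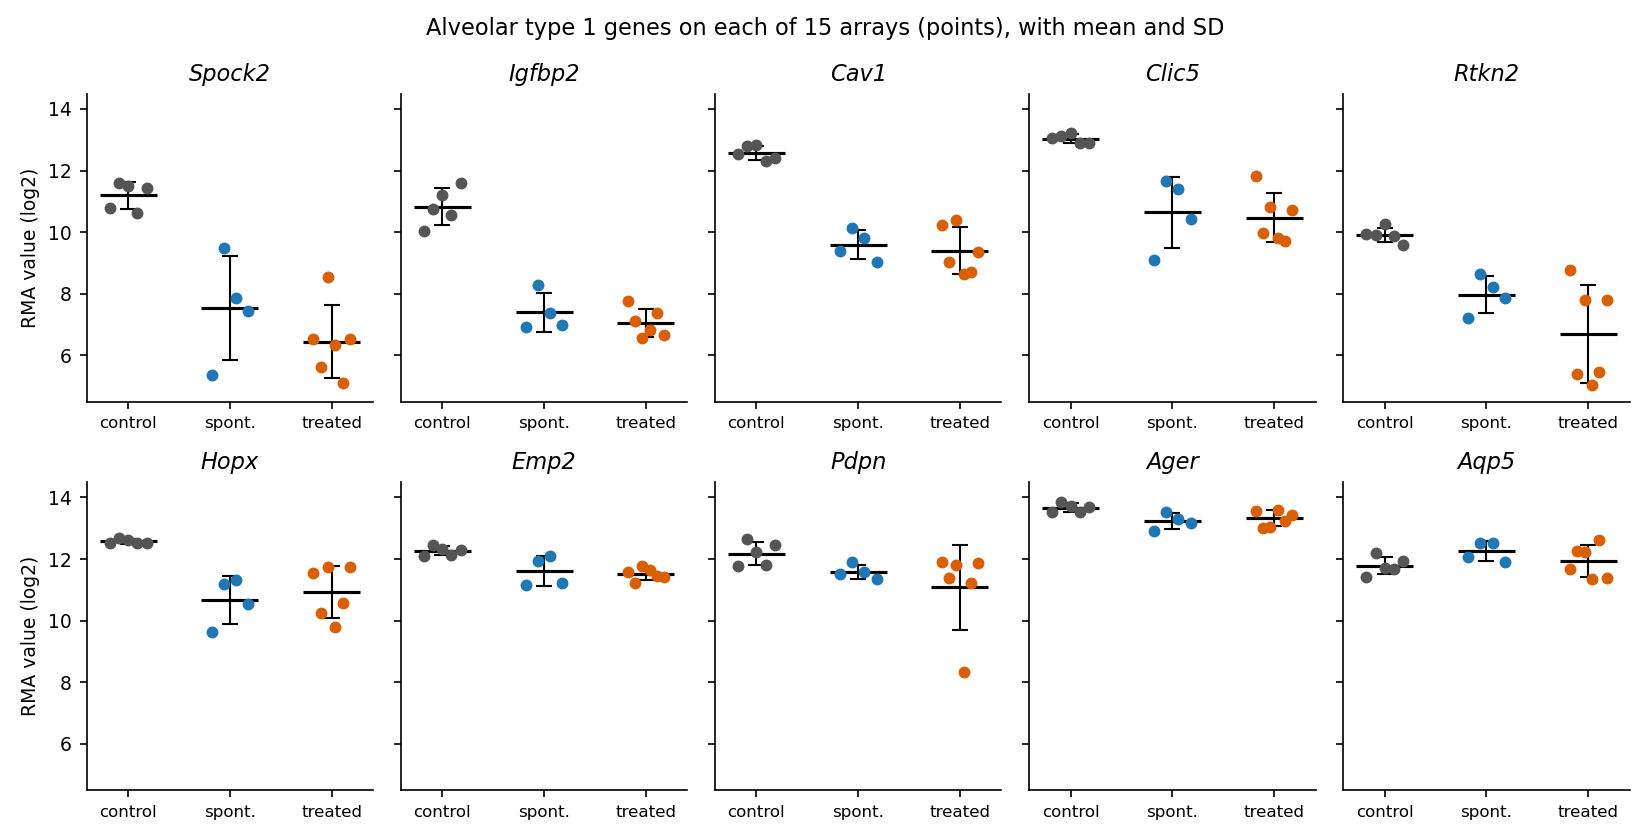
Log2 signal of each of the 10 genes (vertical axis) on each array, by group, for the 15 arrays kept, with a line at each group mean and bars for the SD. For Spock2, Igfbp2, Cav1, Clic5, Rtkn2 and Hopx all tumors lie below all controls, whereas the groups overlap for Aqp5 and, apart from treated tumor 4 at 8.34, lie close together for Pdpn.

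Both secreted members were among the genes that fell most. Spock2 encodes testican-2, a proteoglycan of the extracellular matrix. It read 10.79, 11.61, 11.50, 10.63 and 11.43 log2 on controls 1, 2, 3, 4 and 6, 5.36, 9.47, 7.85 and 7.44 on spontaneous tumors 1 to 4, and between 5.10 and 8.55 with a median of 6.43 on the treated tumors. All 10 tumors lay below all 5 controls, and spontaneous tumor 2, the highest tumor, was still below the lowest control. The difference was -3.66 ± 0.70 (SE) [-3.55] log2 in spontaneous tumors, which is 12.7-fold lower (limma adjusted p = 0.00105). In treated tumors it was -4.75 ± 0.63 [-4.31], or 26.9-fold lower (limma adjusted p = 3.59e-05). Among 18193 genes ordered from the most negative difference, Spock2 stood at place 101 in spontaneous and place 41 in treated tumors.

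Igfbp2 is a binding protein that holds insulin-like growth factors outside the cell. It read 10.03, 10.75, 11.21, 10.57 and 11.59 log2 on controls 1, 2, 3, 4 and 6, 6.93, 8.29, 7.38 and 6.99 on spontaneous tumors 1 to 4, and between 6.57 and 7.76 with a median of 6.97 on the treated tumors. No tumor reached the lowest control, and the tumors spread less among themselves than those for Spock2. The difference was -3.43 ± 0.34 [-2.91] log2 in spontaneous tumors (limma adjusted p = 3.23e-06) and -3.78 ± 0.31 [-3.10] in treated tumors (limma adjusted p = 2.98e-07). These are falls of 10.8-fold and 13.8-fold. Both calls held over all 18 arrays, with adjusted p of 0.0068 and 0.00234.

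Among the membrane organisers, Cav1, the main coat protein of caveolae, read 12.53, 12.79, 12.84, 12.32 and 12.39 log2 on controls 1, 2, 3, 4 and 6. Spontaneous tumors 1 to 4 read 9.40, 10.13, 9.80 and 9.05, and the treated tumors lay between 8.64 and 10.40 with a median of 9.19. The groups were well apart, since the highest tumor, treated tumor 3 at 10.40, was below the lowest control at 12.32. Cav1 fell by 7.89-fold in spontaneous tumors (-2.98 ± 0.34 [-3.06] log2, limma adjusted p = 1.36e-05) and 9.06-fold in treated tumors (-3.18 ± 0.31 [-2.24], limma adjusted p = 1.8e-06). With the 3 left-out arrays included neither call held, with adjusted p of 0.0622 and 0.162.

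Clic5 belongs to the chloride intracellular channel family and is found with actin and ezrin under the apical membrane. It read 13.06, 13.13, 13.22, 12.88 and 12.88 log2 on the controls, 9.11, 11.67, 11.39 and 10.43 on spontaneous tumors 1 to 4, and between 9.71 and 11.81 with a median of 10.34 on the treated tumors. Again no tumor overlapped the controls, and spontaneous tumor 1 was the lowest of all arrays kept. The difference was -2.38 ± 0.47 [-2.69] in spontaneous (limma adjusted p = 0.00135) and -2.56 ± 0.43 [-1.47] in treated tumors (limma adjusted p = 0.000247), or 5.22-fold and 5.9-fold lower. Neither call held over all 18 arrays, with adjusted p of 0.244 and 0.534.

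Emp2, a tetraspan membrane protein of the PMP22 family that affects how integrins and caveolins reach the surface, fell far less. Its controls read 12.11, 12.46, 12.33, 12.15 and 12.29 log2, spontaneous tumors 1 to 4 read 11.16, 11.93, 12.11 and 11.23, and the treated tumors lay between 11.23 and 11.77 with a median of 11.52. Spontaneous tumor 3, at 12.11, reached the lowest controls, while all treated tumors were below them. The difference was -0.66 ± 0.18 [-0.89] log2 in spontaneous (limma adjusted p = 0.0127) and -0.75 ± 0.17 [-0.11] in treated tumors (limma adjusted p = 0.00224). Without spontaneous tumor 4 the first of these was -0.53 with an adjusted p of 0.051.

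Aqp5, the water channel of the apical membrane of type 1 cells, did not pass the test in either tumor group. The controls read 11.43, 12.18, 11.72, 11.68 and 11.94 log2, spontaneous tumors 1 to 4 read 12.08, 12.53, 12.53 and 11.90, and the treated tumors lay between 11.36 and 12.61 with a median of 11.96. The 3 groups overlapped, and the treated tumors spanned the whole control range. The difference was 0.47 ± 0.25 [-0.40] in spontaneous tumors, with a 95% interval of -0.07 to 1.01 and a limma adjusted p of 0.171. In treated tumors it was 0.13 ± 0.23 [0.81], with an interval of -0.35 to 0.62 and a limma adjusted p of 0.689. A fall as large as that of Cav1 or Spock2 lies outside both intervals. Aqp5 stands on this list as a type 1 marker, but it is also made in airway submucosal glands. The part of other cells in its result was not tested.

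Ager encodes the receptor for advanced glycation end products, in lung a receptor of the basal membrane of type 1 cells. It read 13.52, 13.86, 13.73, 13.52 and 13.69 log2 on the controls, 12.91, 13.52, 13.30 and 13.18 on spontaneous tumors 1 to 4, and between 13.00 and 13.61 with a median of 13.34 on the treated tumors. The highest spontaneous tumor and the lowest control both round to 13.52 with the tumor just below, and treated tumors 1 and 4 lay within the control range. The difference of -0.44 ± 0.15 [-0.18] log2 in spontaneous tumors passed the test narrowly (limma adjusted p = 0.0411, 1.35-fold lower). It no longer did so without control 2, 3 or 6, or without spontaneous tumor 1, 3 or 4, in turn, with adjusted p between 0.0604 and 0.133. In treated tumors the difference was -0.35 ± 0.14 [0.61] (limma adjusted p = 0.061), and it passed without treated tumor 1 (-0.40, adjusted p = 0.0404), treated tumor 4 (-0.40, 0.0345) or spontaneous tumor 1 (-0.35, 0.0475), in turn. The signal of this probe set lay near the top of the scale, and whether this compressed its difference was not tested. In controls 0.0858% of probe sets had a higher mean, and the highest value on any kept array was 14.6 log2.

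Pdpn encodes podoplanin, a sialoglycoprotein that links to the cytoskeleton through ezrin and moesin. The controls read 11.78, 12.63, 12.23, 11.81 and 12.44 log2, spontaneous tumors 1 to 4 read 11.51, 11.91, 11.57 and 11.34, and treated tumors 1 to 6 read 11.90, 11.39, 11.80, 8.34, 11.21 and 11.86. Treated tumor 4 was far below the rest, and the other 9 tumors lay between 11.2 and 11.9, from just under the controls to their low end. The difference was -0.60 ± 0.56 [-0.48] in spontaneous (limma adjusted p = 0.44) and -1.09 ± 0.50 [-0.17] in treated tumors (limma adjusted p = 0.0986), neither of which passed. Without treated tumor 4, whose value enters the spread shared by the 3 groups, the differences were -0.60 and -0.55, with adjusted p of 0.0356 and 0.0366. With only the control and spontaneous tumor arrays in the fit, the first had an adjusted p of 0.0429.

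The intracellular members were Rtkn2 and Hopx. Rtkn2 read 9.94, 9.90, 10.25, 9.87 and 9.58 log2 on the controls, 7.20, 8.63, 8.21 and 7.85 on spontaneous tumors 1 to 4, and between 5.05 and 8.77 with a median of 6.62 on the treated tumors. No tumor overlapped the controls, but the treated tumors split widely, with tumors 2, 4 and 5 at 5.05 to 5.45 and tumors 1, 3 and 6 at 7.79 to 8.77. The difference was -1.94 ± 0.65 [-1.61] in spontaneous (limma adjusted p = 0.0327, 3.82-fold lower) and -3.20 ± 0.59 [-2.54] in treated tumors (limma adjusted p = 0.000546, 9.19-fold lower). The spontaneous tumor call was lost without control 1, 2, 3 or 4, or spontaneous tumor 1, 3 or 4, in turn, with adjusted p between 0.0514 and 0.0947.

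Hopx, which marks type 1 cells and works through partner proteins in the nucleus, read 12.52, 12.67, 12.63, 12.53 and 12.51 log2 on the controls, within a range of 0.15. Spontaneous tumors 1 to 4 read 9.62, 11.18, 11.30 and 10.56, and the treated tumors lay between 9.78 and 11.75 with a median of 11.05. Every tumor was below every control, and the tumors differed among themselves far more than the controls did. The difference was -1.91 ± 0.41 [-1.69] in spontaneous (limma adjusted p = 0.00231, 3.75-fold lower) and -1.64 ± 0.37 [-0.93] in treated tumors (limma adjusted p = 0.00252, 3.11-fold lower). Over all 18 arrays neither passed, with adjusted p of 0.266 and 0.543.

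**Figure D2:**
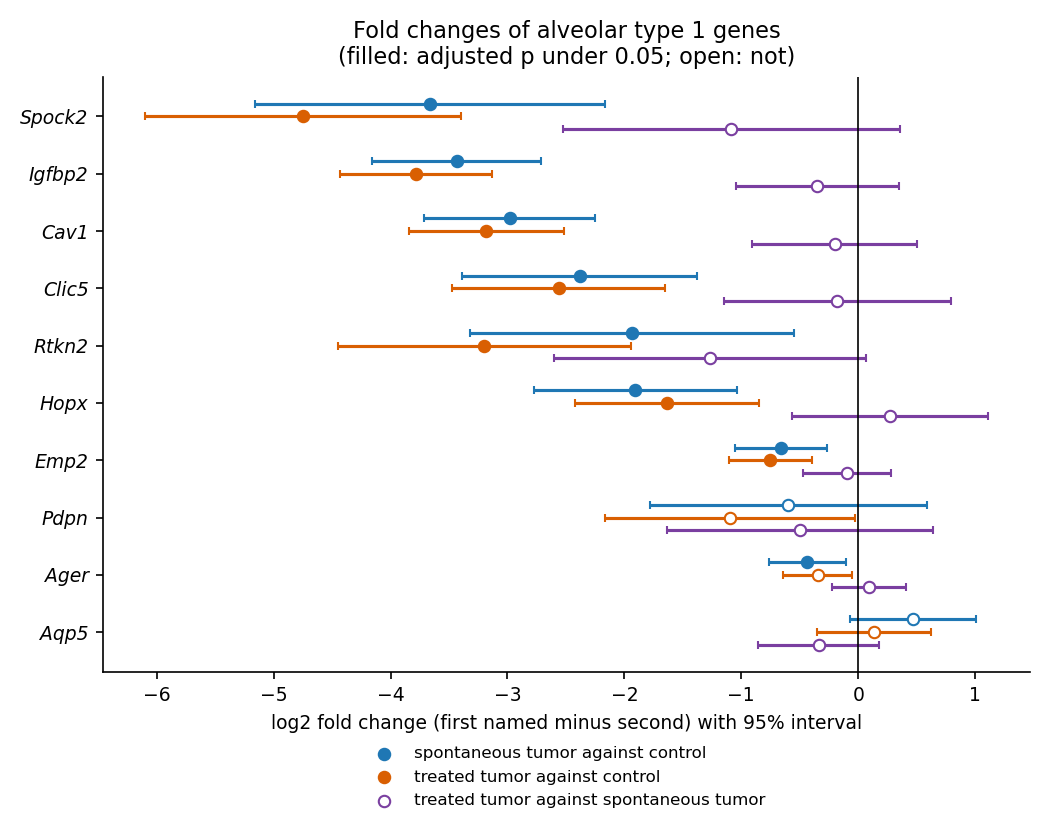
Difference of group means in log2 (horizontal axis) for each member, with bars for the 95% interval over the 15 arrays and filled points where the limma adjusted p was below 0.05. Both tumor groups lie far to the left of 0 for Spock2, Igfbp2, Cav1 and Clic5, near 0 for Ager and Aqp5, and the treated tumors against spontaneous tumors have no filled point.

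The smallest p that an exact permutation test allows is 0.00794 for 5 controls against 4 spontaneous tumors (126 assignments of arrays) and 0.00216 for 5 controls against 6 treated tumors (462 assignments), 2-sided and not adjusted. All 7 members without overlap had that exact permutation p in spontaneous tumors. In treated tumors Cav1, Igfbp2, Spock2 and Emp2 had it, and the exact permutation p was 0.00433 for Rtkn2, 0.00433 for Clic5 and 0.00649 for Hopx. For Pdpn the exact permutation p was 0.0476 in spontaneous and 0.0411 in treated tumors, and for Aqp5 it was 0.0635 and 0.61. The exact permutation p was 0.0159 for Emp2 in spontaneous tumors and 0.0368 for Ager in treated tumors. The Gapdh 3-prime minus 5-prime difference lay below every control on all 10 tumors except treated tumor 1 (1.97), and BioB lay below every control on all 10. The same difference for the actin control probe sets overlapped between the groups. It was -0.24 to -0.17 log2 in controls, -0.38 to -0.23 in spontaneous and -0.33 to -0.17 in treated tumors. The part of any of these measures in the members' results was not tested.

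The treated and spontaneous tumors were compared with each other to ask whether the exposure went with another level of these genes. With limma 0 of 10 members were called, and 0 of 10 had an unadjusted p under 0.05, where 0.0550% of all genes were called (10 genes, and 1571 with an unadjusted p under 0.05). Over all 18 arrays with array weights the count was also 0. All 10 members overlapped between the tumor groups, where 0.797% of all genes lay wholly lower in treated tumors and 0.830% wholly higher. The widest differences were -1.26 for Rtkn2, with a 95% interval of -2.60 to 0.07 and a limma adjusted p of 0.603, and -1.09 for Spock2, with an interval of -2.53 to 0.35 and a limma adjusted p of 0.691. For Cav1 the difference was -0.20, with an interval of -0.91 to 0.50, and for Igfbp2 it was -0.35, with an interval of -1.04 to 0.35. These intervals are wide enough to hold differences of more than 2-fold for Rtkn2 and Spock2.

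Tumors of the same group differed in how low the members were. The median of the 10 members relative to the control mean was -1.09, -2.70, -1.47, -3.52, -2.66 and -1.48 log2 on treated tumors 1 to 6. On spontaneous tumors 1 to 4 it was -2.83, -1.32, -1.46 and -2.04, while the controls lay between -0.15 and 0.20. Treated tumor 4 and spontaneous tumor 1 were thus lowest in their groups, yet Ager on treated tumor 4 was 13.61, within the control range, while Pdpn, Hopx, Cav1 and Rtkn2 were lowest there of the treated tumors.

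Within groups the members tended to move together, most closely Hopx, Rtkn2, Clic5 and Cav1. With each group's mean removed, Pearson's r over the 15 arrays was above 0.5 for 20 of the 45 pairs of members and below 0 for 3, with a median of 0.42. Among pairs of 1820 genes taken at even steps through the alphabetical list, 7.33% had an r above 0.5. The 4 named genes correlated at 0.74 to 0.88 with each other, the closest being Hopx with Rtkn2, and Ager with Aqp5 was lowest at -0.19. These coefficients are descriptions, since the arrays share a normalization and each value mixes all cells of a sample. Ager itself was closest to Gpx5, with an r of 0.88 but a mean signal of 4.33 log2 in controls, and the tenth gene in order, Nav2, had an r of 0.85. The basement membrane laminin gene Lama3, another type 1 gene, was the fourth at 0.865, whereas no member came closer to Ager than Emp2 at 0.58, at place 930 of 18192.

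**Figure D3:**
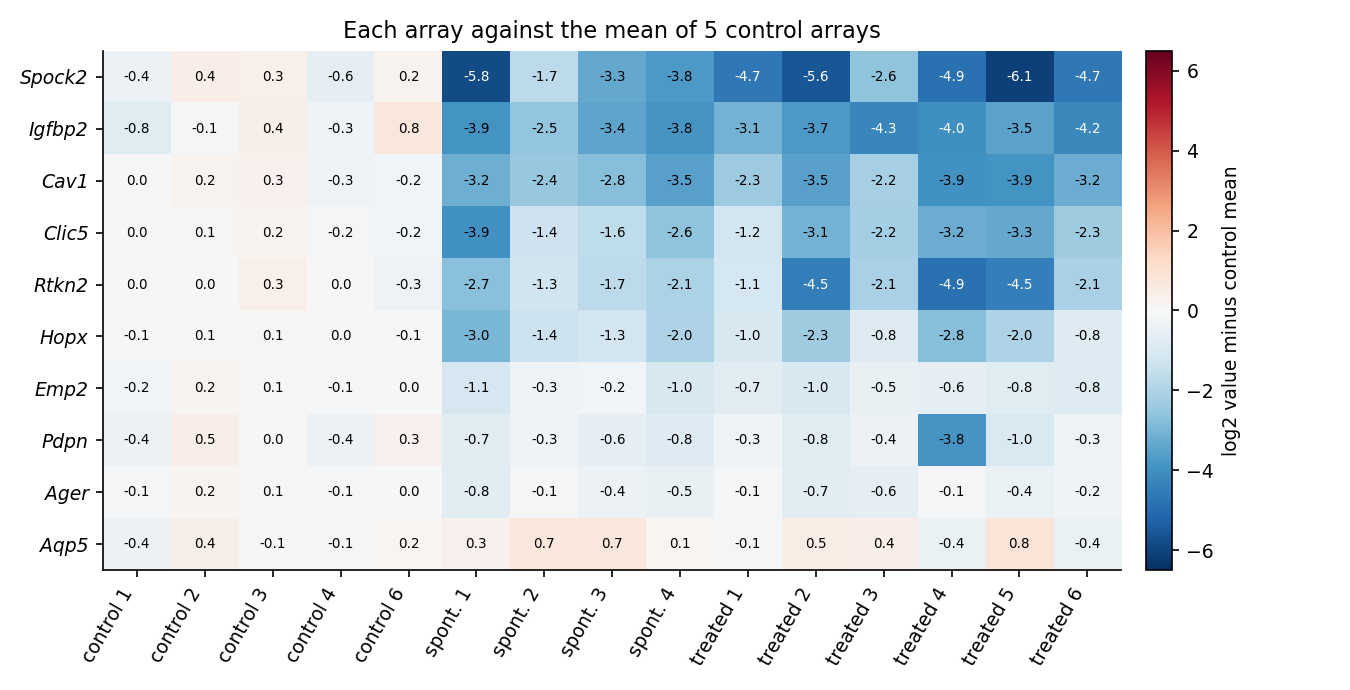
Colour and printed value give each member's log2 signal (rows) on each kept array (columns) minus that member's mean over the 5 controls. Treated tumors 2, 4 and 5 and spontaneous tumor 1 show the lowest values for Clic5, Rtkn2 and Hopx in their groups, while the rows of Ager and Aqp5 stay within 1 log2 unit of 0 on all arrays.

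Other probe sets of the same genes gave differences of the same sign. Taken singly, 14 of 18 probe sets fell in each tumor group, beside 12.7% of all probe sets in spontaneous and 14.8% in treated tumors. The second Hopx probe set differed by -1.98 and -1.76 log2 in spontaneous and treated tumors, and the second of Spock2 by -2.52 and -3.07, smaller than the first. The remaining probe sets of Clic5 ran from -2.51 to -2.68 in spontaneous and from -2.83 to -2.90 in treated tumors. The 2 remaining probe sets of Emp2 differed by -0.96 and -0.53 in spontaneous and by -1.13 and -0.61 in treated tumors, and the lesser did not pass in spontaneous tumors (limma adjusted p = 0.0884). The second probe set of Ager, at 12.68 log2 in controls, differed by -0.41 and -0.30, with limma adjusted p of 0.138 and 0.21, so neither passed. Aqp5, Pdpn, Cav1, Rtkn2 and Igfbp2 each rested on 1 probe set.

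**Figure D4:**
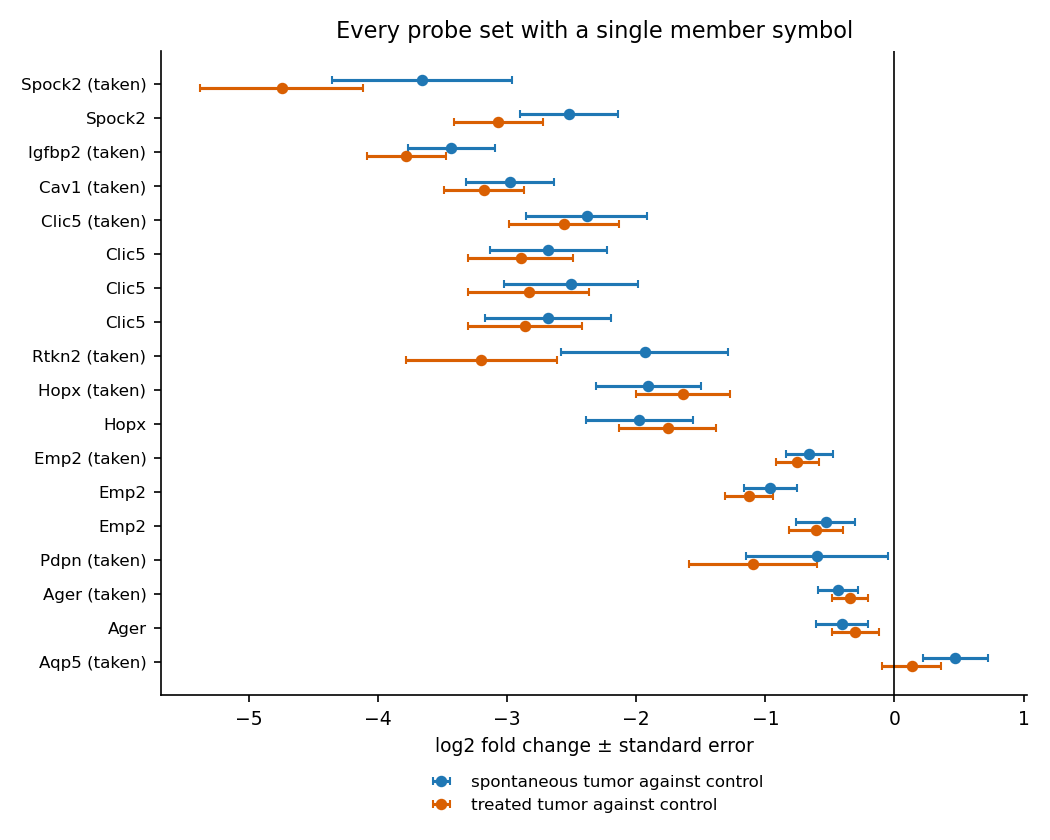
Log2 difference from control (horizontal axis, bars for the SE) of each of the 18 single-symbol probe sets (rows) in spontaneous and treated tumors, which share the same controls; "taken" marks the probe set used for the gene. Probe sets of a gene lie close together, the widest gap being that between the 2 of Spock2.

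The start regions of 4 members are given because Spock2 and Cav1 fell strongly while Ager and Aqp5 differed little. They run from 250 bases before to 50 bases after the RefSeq start on the mouse build GRCm38.p6, 5′ to 3′, and capitals mark the motifs found. Spock2 lies at chr10:60106007-60106306, Cav1 at chr6:17306085-17306384 (the first of 2 starts), Ager at chr17:34597600-34597899 and Aqp5 at chr15:99590778-99591077, all on the plus strand.
Spock2: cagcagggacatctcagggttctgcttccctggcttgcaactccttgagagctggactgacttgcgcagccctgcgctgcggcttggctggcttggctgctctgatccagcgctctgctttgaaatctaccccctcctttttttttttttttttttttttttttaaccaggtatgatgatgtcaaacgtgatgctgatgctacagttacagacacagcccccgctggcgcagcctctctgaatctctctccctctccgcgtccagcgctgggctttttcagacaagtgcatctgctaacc
Cav1: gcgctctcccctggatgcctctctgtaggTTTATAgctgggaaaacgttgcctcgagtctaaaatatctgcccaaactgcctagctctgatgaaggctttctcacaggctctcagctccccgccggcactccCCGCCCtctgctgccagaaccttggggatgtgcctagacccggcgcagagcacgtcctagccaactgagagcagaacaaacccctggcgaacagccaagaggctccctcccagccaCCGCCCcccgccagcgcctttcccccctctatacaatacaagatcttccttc
Ager: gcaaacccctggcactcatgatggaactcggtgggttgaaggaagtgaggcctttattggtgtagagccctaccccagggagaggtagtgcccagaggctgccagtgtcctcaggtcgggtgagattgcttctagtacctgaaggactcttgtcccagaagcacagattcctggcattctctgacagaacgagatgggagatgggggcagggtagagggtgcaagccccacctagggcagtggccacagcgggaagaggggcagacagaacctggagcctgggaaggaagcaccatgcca
Aqp5: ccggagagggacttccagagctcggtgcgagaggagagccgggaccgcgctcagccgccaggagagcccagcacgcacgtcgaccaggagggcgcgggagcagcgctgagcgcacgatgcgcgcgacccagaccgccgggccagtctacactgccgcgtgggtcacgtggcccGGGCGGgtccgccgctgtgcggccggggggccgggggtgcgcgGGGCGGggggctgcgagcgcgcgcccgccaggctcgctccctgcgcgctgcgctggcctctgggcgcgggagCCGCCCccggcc
Searched on both strands were GGGCGG (the GC box), TATAAA (the TATA box), TGANTCA (AP-1) and GGAATG (the TEAD motif of the YAP and TAZ pathway), and no found motif shared bases with another in the windows printed. Of the 12 windows of 9 members, 6 held a GC box, beside 35.7% of all 32851 windows. The TATA letters were found in 1 window, that of Cav1 above, beside 13.6% of all windows. This match was the reverse complement TTTATA near the upstream end of the window, and the search did not ask for a distance from the start. AP-1 was found in 1, the second window of Igfbp2, beside 7.81%, and the TEAD motif in 0, beside 14.7%. The Aqp5 window had 79.7% G and C and 3 GC boxes, that of Ager 58.3% and that of Spock2 52.3%, against a median of 52.7% over all windows. These matches describe letters only.

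Other genes known from type 1 cells, from a list chosen with earlier results known, were lower in part. Of 17 measured, 6 fell in spontaneous tumors and 10 in treated tumors, where 12.9% and 15% of all genes fell. Their median difference was -1.03 [-1.40] and -0.96 [-0.55] log2. Cyp2b10, a cytochrome P450, differed by -3.66 ± 0.93 [-3.23] in spontaneous and -5.42 ± 0.84 [-4.80] in treated tumors. Limch1, an activator of non-muscle myosin, differed by -2.59 ± 0.36 [-2.31] and -2.68 ± 0.32 [-1.96]. Sema3e, a guidance signal for vessels, and Scnn1g, a subunit of the epithelial sodium channel, also fell, Sema3e at -2.12 [-1.68] and -2.93 [-2.39] and Scnn1g at -1.77 [-1.74] and -2.48 [-1.67] in spontaneous and treated tumors. Vegfa, the vascular growth factor that type 1 cells send to capillaries, fell as well (-1.32 [-1.49] and -0.96 [-0.55]). The remaining members of the list did not all follow: Gprc5a was at -0.03 [-0.16] and -0.07 [0.69], the tight junction gene Cldn18 at 0.46 [0.06] and 0.29 [1.33], and the keratin Krt7 at -0.14 [0.07] and 0.52 [1.01], and none of the 3 passed in either group. Over all 18 arrays 1 of 17 was called lower in spontaneous and 2 of 17 in treated tumors. There 3.13% and 4.46% of all genes fell.

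Markers of alveolar type 2 cells were higher in the same tumors. Of 11 measured, 8 rose in spontaneous and 8 in treated tumors, where 20.1% and 23.8% of all genes rose, with a median of 0.70 [0.89] and 0.65 [1.28] log2. Napsa, a protease that trims surfactant precursors, rose by 3.03 ± 0.38 [1.95] and 2.31 ± 0.34 [2.60]. The transcription factor gene Etv5 rose by 1.68 [0.56] and 1.60 [2.08], and the surfactant gene Sftpd by 1.16 [1.28] and 1.02 [1.70]. Sftpc, the surfactant gene most used as a type 2 marker, was at -0.01 [0.28] and 0.02 [0.49] and did not pass. Its control mean of 14.22 log2 lay near the highest value on any kept array, 14.6. Whether this compressed its difference was not tested. The mean log2 level over the type 2 markers was 12.1 to 12.8 in controls, 13.3 to 13.5 in spontaneous and 13.2 to 13.3 in treated tumors. Over all 18 arrays limma called 0 and 1 of the 11, with 2 and 7 at an unadjusted p under 0.05. Of all 18193 genes 176 and 541 rose there, and 2502 and 3408 had an unadjusted p under 0.05.

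Of 11 measured genes of the transitional state between type 2 and type 1 cells, 1 rose in spontaneous and 3 in treated tumors, with a median of 0.28 [0.10] and 0.54 [0.77] log2, where 20.1% and 23.8% of all genes rose. With 18 arrays limma called 0 and 2 of the 11, with 2 and 2 at an unadjusted p under 0.05. Of all 18193 genes 176 and 541 rose there, and 2502 and 3408 had an unadjusted p under 0.05. The keratin Krt18 rose in both, by 0.90 ± 0.22 [1.39] and 1.31 ± 0.20 [1.97]. Its partner Krt8 rose by 0.67 [1.24] in treated tumors and was at 0.47 [0.10] in spontaneous tumors (limma adjusted p = 0.0963). Cldn4, a tight junction gene of that state, rose by 2.73 ± 0.43 [2.45] in treated tumors and was at 0.63 ± 0.48 [0.71] in spontaneous tumors. Between the tumor groups Cldn4 differed by 2.10 ± 0.46, which did not pass (limma adjusted p = 0.167). Other genes of the list lay below 0 in spontaneous tumors. These were the keratin Krt19 at -0.645 [-0.853], Ndrg1 at -0.63 [-0.781] and Itgb6 at -0.593 [-1.512], and none of them passed. In treated tumors the lowest difference on the list was -0.677, and 0 genes of the list were called lower.

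The YAP and TAZ pathway, which senses stretch and is known to be active in type 1 cells, was given by 15 measured genes. In spontaneous tumors 8 fell and 2 rose, where 12.9% of all genes fell and 20.1% rose. In treated tumors 6 fell and 3 rose, where 15% of all genes fell and 23.8% rose. The target genes Ankrd1 (-1.93 [-1.67] and -1.50 [-1.57] log2 in spontaneous and treated tumors), Amotl2 (-1.30 [-0.95] and -1.28 [-1.05]) and Ccn2 (-1.19 [-1.11] and -0.90 [0.30]) fell, as did the kinase gene Lats2 (-1.30 [-1.34] and -1.17 [-0.97]). Not all of the list did so. Lats1 rose by 0.34 [-0.27] in spontaneous tumors (limma adjusted p = 0.0486), and Ccn1, at -0.84 [-0.29] there, did not pass (limma adjusted p = 0.198). Among the transcription factors, Tead1 fell (-0.74 [-0.95] and -0.77 [0.15]) while Tead3 rose by 0.58 [0.53] and 0.79 [0.81]. Wwtr1, which encodes TAZ, fell (-0.54 [-0.79] and -0.44 [0.06]), and Yap1 was at -0.31 [-0.58] and -0.28 [0.43] without passing. With all 18 arrays Ccn2, Tead1, Wwtr1 and Yap1 had the opposite sign in treated tumors. The list then had 2 genes lower and 0 higher in each tumor group, with 4 and 5 genes at an unadjusted p under 0.05. Over those arrays 3.13% and 4.46% of all genes fell, and 2502 and 3408 of 18193 had an unadjusted p under 0.05.

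Relatives and partners of the members showed both directions. Of 6 caveola genes besides Cav1, 5 fell in each tumor group, where 12.9% and 15% of all genes fell, led by Cavin2 (-3.01 ± 0.22 [-3.11] and -2.98 ± 0.20 [-2.15] log2), which encodes a coat protein, with Cav2 at -1.58 [-1.72] and -1.26 [-0.44]. Limma over all 18 arrays called 1 and 0 of the 6 caveola genes, with 2 and 1 at an unadjusted p under 0.05. Over those arrays 3.13% and 4.46% of all genes fell, and 2502 and 3408 of 18193 had an unadjusted p under 0.05. Of 9 other aquaporins 3 fell in each group, among them Aqp4 (-4.12 [-3.24] and -4.11 [-3.81]) and Aqp1, the water channel of capillaries (-2.13 [-1.86] and -1.90 [-0.89]). In spontaneous tumors 1 rose, Aqp2 by 0.45 [0.82], and in treated tumors 0 rose. Over all 18 arrays 1 of the 9 aquaporins was called lower and 0 higher in each group. Where Igfbp2 fell, Igfbp3 rose by 2.14 ± 0.37 [1.85] and 2.86 ± 0.33 [3.01], and Igfbp6 fell (-3.70 [-2.76] and -3.35 [-2.98]). Counting the 6 binding proteins besides Igfbp2, 1 rose and 2 fell in spontaneous tumors, and 1 rose and 1 fell in treated tumors. Of all genes 20.1% rose in spontaneous and 23.8% in treated tumors. Rtkn, the only other rhotekin measured, rose by 1.55 ± 0.23 [1.00] and 1.74 ± 0.21 [1.64] while Rtkn2 fell.

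Smaller families followed no single direction. Of 18193 genes 6012 changed in spontaneous and 7065 in treated tumors, and the counts below stand beside that share. Of all genes 12.9% and 15% fell, and 20.1% and 23.8% rose. Over all 18 arrays 746 and 1353 genes were called, and 2502 and 3408 had an unadjusted p under 0.05. Among 4 relatives of Clic5, 2 fell in spontaneous tumors, and 1 fell and 1 rose in treated tumors, with Clic4 at -1.59 [-1.09] and -1.96 [-1.17]. Of 3 relatives of Emp2, 2 fell in spontaneous and 1 in treated tumors, with the peripheral myelin gene Pmp22 at -2.67 [-1.93] and -3.12 [-2.39]. The 2 other testicans, with mean levels of 3.00 to 3.64 log2 on the kept arrays, gave 0 calls with limma in either group, over 15 or 18 arrays, and 0 at an unadjusted p under 0.05. For Ager, 1 of 7 measured ligands and partners changed, the receptor gene Tlr4, which rose by 1.54 [0.70] and 1.43 [2.20]. For Pdpn, the adhesion receptor gene Cd44 rose by 1.64 [0.69] and 1.23 [1.48] and moesin (Msn) fell (-0.73 [-0.70] and -0.82 [-0.12]), among 6 partners of which 3 changed in spontaneous and 5 in treated tumors. On 18 arrays limma called 0 genes in either tumor group among the relatives of Clic5 (1 and 0 at an unadjusted p under 0.05), the partners of Ager (1 and 1) and those of Pdpn (0 and 1), and 0 and 1 of the relatives of Emp2 (2 and 1).

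**Figure D5:**
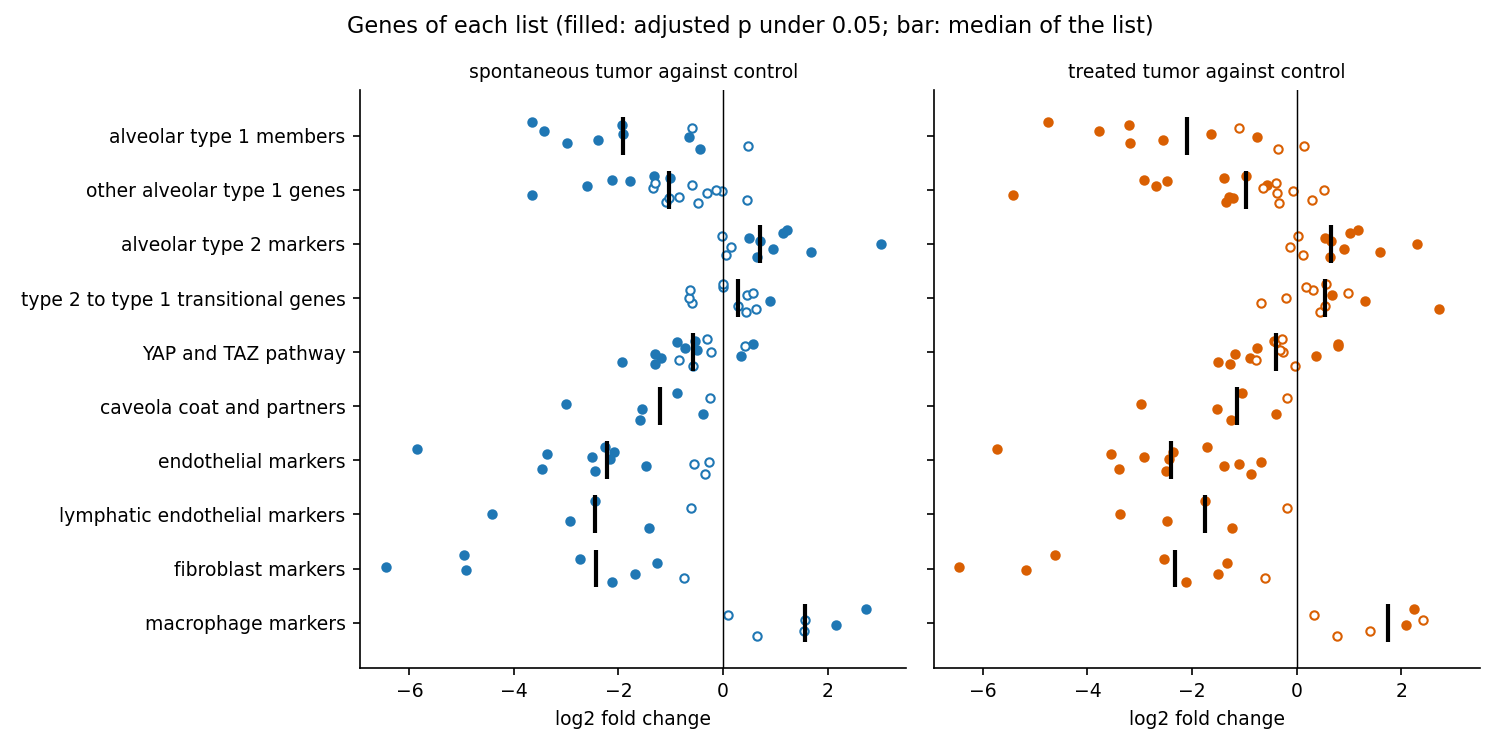
Each point is a measured gene of a list (rows) at its log2 difference from control lung, in spontaneous and in treated tumors, with a line at the list's median. The medians lie below 0 for the members and the other type 1 genes, above 0 for the type 2 markers, and below 0 again for the endothelial, lymphatic and fibroblast markers. Filled points passed the test.

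Markers of other cell types moved with the same comparisons. Of 12 endothelial markers, 9 fell in spontaneous and 12 in treated tumors, with a median of -2.21 [-1.95] and -2.40 [-1.63] log2, and their mean level ranged over 10.7 to 11.6 in controls, 8.36 to 9.30 in spontaneous and 8.25 to 9.36 in treated tumors. Of 8 fibroblast markers 7 fell in each group, and their mean level ranged over 11.05 to 11.56, 7.60 to 8.91 and 7.20 to 9.14. When all 18 arrays were used, 4 and 4 of the 12 endothelial and 4 and 4 of the 8 fibroblast markers were called lower. Cav1 is made by capillary endothelium as well as by type 1 cells, and the part of these cells in its result was not tested. For the podoplanin-positive lymphatic endothelium, 4 of 5 markers fell in each group, with a mean level of 8.08 to 8.74 in controls, 5.68 to 6.23 in spontaneous and 5.82 to 7.52 in treated tumors. The fit over 18 arrays called 4 and 2 of these 5 lower. Mesothelial markers fell for 2 of 6 in each group, also over all 18 arrays. On the kept arrays 12.9% of all genes fell in spontaneous and 15% in treated tumors, and over all 18 arrays 3.13% and 4.46% fell.

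Airway and smooth muscle markers mostly fell, and cardiac muscle and immune markers changed in part. All 6 ciliated cell markers fell in each group, and 3 and 5 of 5 club cell markers fell in spontaneous and treated tumors. All 6 smooth muscle markers fell in each group, and 2 of 6 cardiac muscle markers fell while 1 rose. Of 6 macrophage markers 2 rose in each group, where 20.1% and 23.8% of all genes rose. Of 5 lymphocyte markers 3 and 4 fell, where 12.9% and 15% of all genes fell. In the fit over 18 arrays the ciliated, club and cardiac markers had as many lower calls. There 4 and 4 smooth muscle and 1 and 2 lymphocyte markers were called lower and 1 and 1 macrophage markers higher. Of all genes 3.13% and 4.46% fell in that fit, and 176 and 541 of 18193 rose. The part of the airway, muscle and immune cells in the results for the members was not tested. The mean level of the 10 members ranged over 11.8 to 12.2 log2 in controls, 9.53 to 10.9 in spontaneous and 9.14 to 10.5 in treated tumors.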

How the data were processed

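Per the submitters' processing notes, the authors used RMA for the log2 values they deposited, which corrects background, normalizes arrays together and summarizes probes; its version is not given in the sources used here. Per the labels' protocols, 100 ng of total RNA was amplified for 3-prime arrays. The 45101 probe sets held 64 controls, 34945 with 1 gene symbol, 932 with several and 9160 with none; only those with 1 symbol were tested, at 1 probe set per gene. RMA can carry a poor array into the others, and array values near both ends of the scale can be compressed.

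The 3 groups were compared in 1 fit with limma 3.58.1 (R 4.3.3), without covariates, over 15 arrays, and p-values were adjusted by Benjamini-Hochberg over 18193 genes; an adjusted p below 0.05 was called. The median SE was 0.17, 0.15 and 0.16 log2 in the 3 comparisons; the number of arrays limits this precision. The arrays left out, the members, the 23 other lists (163 of 171 genes measured) and the tests were chosen with earlier results of these data known. The genes named are the members, genes of these lists and the 10 genes closest to Ager. The authors' own test, ORIOGEN, was not run here. The code was tested on simulated data. Replicate numbers are shared between groups, but 11 of 13 same-numbered pairs correlated below 0.1 in their deviations from the group means, so numbers were not read as pairs. Alternatives were all 18 arrays, with and without array weights, quantile normalization, median centring, a filter on dim genes, probe sets averaged per gene, probe sets chosen over 18 arrays, a variance trend with robust variances, only the arrays compared, a replicate block, a fold change of at least 2 and each array left out. Promoter windows are from RefSeq; 9 of 10 members had an entry.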

Additional observations from a re-analysis of the deposited data

Results flagged for a closer look

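Of 30 groups examined (10 members in 3 groups), 1 held an array far from the others. Pdpn read 8.34 log2 on treated tumor 4, where the other 5 treated tumors lay between 11.2 and 11.9. The gap to the nearest array was 0.81 of the whole range, above Dixon's 95% critical value for 6 samples. Chance alone marks about 1 in 20 groups. Pdpn rested on 1 probe set, so no second reading of that array was available. Without this array Pdpn passed the test in both tumor groups, and in spontaneous tumors it also passed with only the arrays compared, as given above.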

How the results depend on the processing

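Spock2 and Igfbp2 kept their direction and their call in both tumor groups under every alternative run, and Cav1, Clic5 and Hopx lost theirs only with all 18 arrays. With all 18 arrays the genes called fell from 6012 to 746 in spontaneous and from 7065 to 1353 in treated tumors, and from 10 to 0 between the tumor groups, and the members called fell to 2 and 3. Signs turned there for Aqp5 in spontaneous tumors (-0.40), Ager in treated tumors (0.61), and, between treated and spontaneous tumors, Aqp5 (1.21), Pdpn (0.31), Cav1 (0.82), Clic5 (1.23) and Emp2 (0.79), none of which was called. Without genes below the median level, 4004 and 4658 of 9097 genes were called, and with a fold change of at least 2, 2421 and 2589, and Ager and Emp2 were then not among them. Genes called between the tumor groups numbered 36 with array weights, 5 with quantile normalization, 5 with the variance trend and 0 with only the arrays compared. With the replicate block they numbered 0, Aqp5 in treated tumors was -0.004, and Ager (adjusted p = 0.115) and Rtkn2 (0.0537) lost their calls in spontaneous tumors; the block changed no other call of a member. With only the arrays compared, Pdpn passed in spontaneous tumors (0.0429). Ager also lost that call with array weights (0.057) and with the mean of its probe sets (0.0765), and passed in treated tumors with median centring (0.0366), the dim filter (0.0486) and the variance trend (0.0434). Leaving out each array gave 4993 to 6177, 6083 to 7225 and 0 to 28 genes called, and 5 to 9, 7 to 9 and 0 to 0 members; Ager in treated tumors passed in 3 of these, given above; the 5 came without spontaneous tumor 4 and the 28 without treated tumor 1. Signs turned there for uncalled differences, which ranged from -0.004 to 0.245 for Aqp5 in treated tumors and, between the tumor groups, from -0.017 to 0.186 for Ager, -0.079 to 0.501 for Hopx, -0.661 to 0.05 for Pdpn, -0.69 to 0.163 for Clic5 and -0.243 to 0.074 for Emp2. The cause of these changes was not tested. Between the tumor groups, the intervals given above limit what 4 against 6 arrays can show.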
